A study of Caenorhabditis elegans with 8 samples.

Results

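Nematodes labelled hlh-2 RNAi were compared directly with nematodes labelled lin-32 RNAi, 3 libraries a side. These are 6 of the 8 libraries of the series, taken by their labels alone, and no L4440 library entered the contrast. Every library held total RNA of whole Caenorhabditis elegans nematodes of the wild-type strain N2, sequenced after feeding on bacteria that carried an RNAi plasmid. By the labels, one group was fed a plasmid against hlh-2 and the other a plasmid against lin-32. The hlh-2 transcript, given below, was at the L4440 level under its own label. The remaining 2 libraries came from animals given L4440, an empty feeding plasmid, and their levels are given beside the contrast. No mutation, transgene or other agent is named for any group, and the sources used here give neither the stage nor the number of animals. The labels do not say whether replicates were separate cultures, so p-values measure only how these libraries vary, and that spread may be technical. In whole animals, fewer cells of a type and less RNA per cell cannot be told apart.

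HLH-2 and LIN-32 are basic helix-loop-helix (bHLH) transcription factors, which bind E-box sites in DNA as pairs. LIN-32 is related to Atonal of Drosophila and is a proneural factor, known in the worm for making the neuroblasts of touch receptor neurons, other sensory neurons and the male rays. HLH-2 belongs to the E proteins, common partners with which proneural factors such as LIN-32 pair, and it also acts with other bHLH proteins, for example in the anchor cell of the gonad. The comparison asks which transcripts differ when one member of such a pair, or the other, is the target.

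The unit of level is CPM, the share of a library's scaled total that a gene takes. Total counts ran from 28979768 to 34814808 in the 6 libraries, where 1 CPM stands for 28.7 to 35.4 counts, and were 22380739 and 27737470 in the L4440 libraries. Between 0.399% and 1.29% of counts fell on ribosomal RNA genes. Markers of muscle (myo-3, unc-54), pharynx (myo-2), intestine (ges-1, elt-2), neurons (unc-119, rab-3), hypodermis (dpy-7, elt-3), germline (glh-1, pgl-1), oocytes (rme-2, oma-1) and adult yolk (vit-2, vit-6) all passed the count filter, and the sperm markers msp-142 and spe-9 did not. Spread among replicates exceeded counting noise, with a chi-square per degree of freedom of 5.58 to 16. The kit does not mark strand, so reads of a gene and of one overlapping it on the other strand cannot be told apart.

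As a check of the labels, the hlh-2 transcript was not reduced under its own label. The hlh-2 gene (WBGene00001949, on the minus strand of chromosome I, 7190788 to 7193920 in WBcel235) had 49, 49 and 54 CPM under the hlh-2 RNAi label, 23, 27.8 and 15.6 CPM under the lin-32 RNAi label, and 50.6 and 49 CPM in L4440. All 3 libraries labelled hlh-2 RNAi lay at the L4440 level and all 3 labelled lin-32 RNAi lay lower, with no overlap. The log2 difference, taken here and below as libraries labelled hlh-2 RNAi minus those labelled lin-32 RNAi, was 1.19 ± 0.15 (SE, n = 3 a side, adjusted p = 0.00674 by edgeR's quasi-likelihood test with Benjamini-Hochberg adjustment over all genes tested). With edgeR's robust option the same difference had an edgeR adjusted p of 0.267. The lin-32 gene (WBGene00003018, on the minus strand of chromosome X, 2229055 to 2230122) was scarce, at 73, 114 and 67 counts under the hlh-2 RNAi label and 28, 24 and 23 under the lin-32 RNAi label. In CPM these were 2.41, 3.40 and 2.06 against 0.975, 0.677 and 0.763, with 1.5 and 1.42 in L4440. The L4440 libraries thus lay between groups that did not overlap. The log2 difference was 1.72 ± 0.24 (SE, edgeR adjusted p = 0.0129). It lost the call without replicate 2 or 3 of lin-32 RNAi (edgeR adjusted p = 0.109 and 0.0761). Both targeted transcripts were therefore lower in the libraries labelled lin-32 RNAi. The cause was not tested, and transcript levels do not show which plasmid was fed. Groups are named by their labels throughout.

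Few genes differed between the groups, and the higher and lower ones were of different kinds. Of 13848 genes tested, 57 passed (0.412%). Of these, 36 were higher (0.26%) and 21 lower (0.152%) under the hlh-2 RNAi label. The higher genes were scarce transcripts with large differences, at a median log2 difference of 1.43 (0.55 to 4.08). Their median level was 1.54 CPM, and 29 of the 36 averaged under 5 CPM. Most lower genes were more abundant transcripts with smaller differences, at a median log2 difference of -0.41 (-3.40 to -0.20) and a median level of 131 CPM, where all tested genes had 13 CPM, and 2 of the 21 averaged under 5 CPM. Of the 33 genes that differed by more than 2-fold, 30 were higher and 3 lower. The unadjusted p was under 0.05 in 1063 genes.

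Entering the sample number of the labels as a block raised the count to 386 genes (2.79%), with 227 higher (1.64%) and 159 lower (1.15%). All 57 genes were among the 386 with the same direction, and the other 329 passed only with the block. Most of the latter that are named below were chosen after their values were seen. Over 2-fold differences then numbered 72, of which 63 were higher. The unadjusted count was 1822. The groups' libraries did not overlap in 1889 of all tested genes (13.6%), in each of the 57 and in 270 of the 386. The block took the biological coefficient of variation from 5.45% to 3.83%, while the residual degrees of freedom went from 4 to 2. Most of the genes gained had small differences, and the median log2 difference of all called genes was 0.57 for higher and -0.24 for lower ones.

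**Figure D1:**
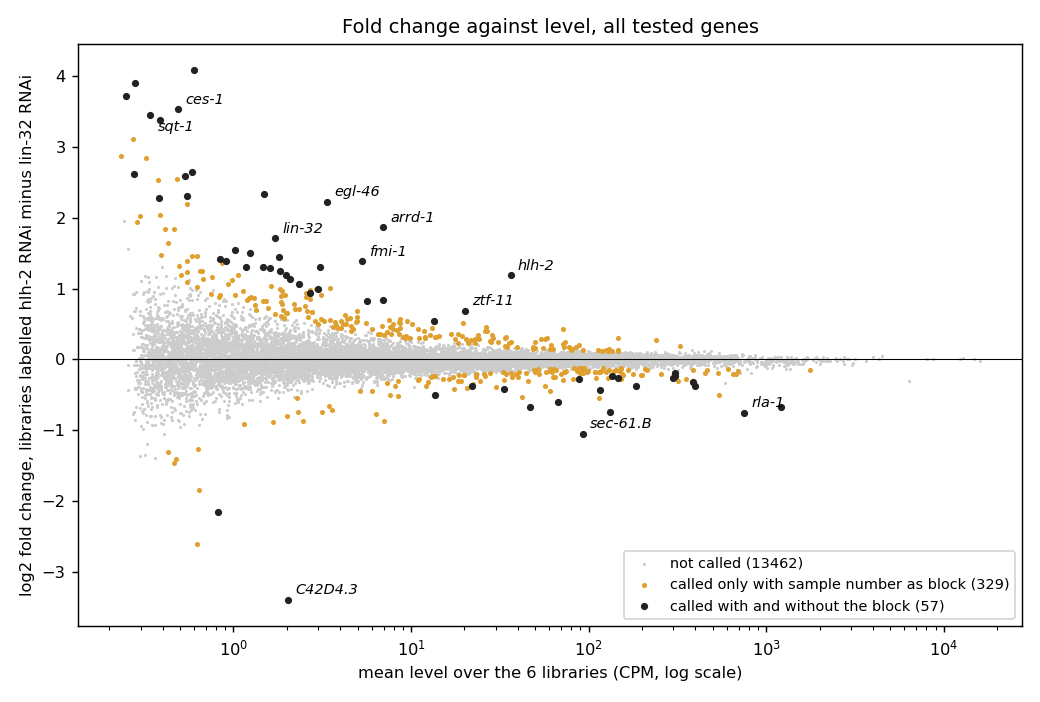
Each point is 1 of the 13848 tested genes, with its mean level over the 6 libraries (CPM, log scale) on the x axis and its log2 difference, libraries labelled hlh-2 RNAi minus lin-32 RNAi, on the y axis. Black points are the 57 genes called with and without the block and orange points the 329 called only with it. The called genes above 0 lie mostly at low levels and those below 0 mostly at high levels.

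Transcription factors of neurons were among the higher genes, with the zinc finger gene egl-46 at the smallest p. This factor acts in the differentiation of touch receptor and other neurons. The egl-46 gene (WBGene00001210, chromosome V, 6679123 to 6681573) had 4.88, 5.58 and 6.24 CPM under the hlh-2 RNAi label, 1.22, 1.33 and 0.995 CPM under the lin-32 RNAi label, and 8.25 and 5.70 CPM in L4440. Every library labelled lin-32 RNAi lay far below the other 5. The log2 difference of egl-46 was 2.23 ± 0.16 (SE), with the smallest edgeR adjusted p of all genes, 0.000421. For ztf-11, a zinc finger gene that promotes neurogenesis, the levels were 23.3, 24 and 26.9 CPM against 14.4, 14.8 and 16.9 CPM, with 24.3 and 25.9 CPM in L4440. The groups did not overlap, and the log2 difference was 0.69 ± 0.078 (SE, edgeR adjusted p = 0.00425). The zinc finger gene syd-9, of synapse function, had 7.61, 9.28 and 10.02 CPM against 4.39, 5.19 and 5.41 CPM. It was also higher with no overlap, by 0.84 ± 0.12 (log2, SE, edgeR adjusted p = 0.0197).

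Scarcer members of the group rested on few counts. The Snail-type gene ces-1, which controls the death of sister cells of pharyngeal neurons, had 29, 27 and 31 counts under the hlh-2 RNAi label and 3, 3 and 1 under the lin-32 RNAi label. It had 13 and 17 counts in L4440, between the groups. The log2 difference was 3.54 ± 0.37 (SE, edgeR adjusted p = 0.00293), and the gene shares exon sequence with cpn-1 on the other strand. The paired-type homeobox gene unc-42, of command interneurons and other neurons, had 1.19, 1.43 and 1.32 CPM against 0.348, 0.508 and 0.630 CPM, a log2 difference of 1.395 ± 0.24 (SE, edgeR adjusted p = 0.037). The ETS-type gene ast-1, of dopaminergic neurons, was named after its values were seen. It had 1.81, 1.91 and 2.52 CPM against 0.906, 0.733 and 0.895 CPM, a log2 difference of 1.31 ± 0.20 (SE, edgeR adjusted p = 0.0234), and overlaps rhgf-2 on the other strand. In each of these genes the lowest library labelled hlh-2 RNAi exceeded the highest labelled lin-32 RNAi.

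Of 52 tested genes in the list of neuron identity transcription factors, these 6 passed as higher and 0 as lower, 45 lay above 0, and the median log2 difference was 0.21. Over all 13848 tested genes 6950 lay above 0, 0.26% passed as higher, and the median was 0.00041. Of the 6, ces-1 passed the count filter only through the libraries labelled hlh-2 RNAi. The list was chosen with earlier results of these data known, so its counts are a description and no independent support. With the block 12 were higher and 0 lower, where 1.64% of all tested genes were higher and 1.15% lower. The additional 6 were zag-1 (1.001), lim-4 (1.85), unc-3 (1.13), ceh-43 (0.55), ceh-32 (0.52) and unc-30 (0.88), given as log2 differences in the blocked fit. Without the block none of the 6 passed, with edgeR adjusted p from 0.0764 for zag-1 to 0.543 for unc-30. The libraries of the groups overlapped in ceh-32 and unc-30 and were apart in the other 4. Like ces-1, lim-4 passed the count filter only through the libraries labelled hlh-2 RNAi. In the overlapping list of homeobox genes, 1 of 69 tested was higher and 0 lower, and 7 and 0 with the block, with a median of 0.11. The calls of egl-46, ztf-11 and ces-1 held with any 1 library left out. Those of syd-9, ast-1 and unc-42 were lost without any 1 of replicates 2 and 3 of hlh-2 RNAi and 1, 2 and 3 of lin-32 RNAi (highest edgeR adjusted p = 0.108, 0.134 and 0.193), and that of unc-42 also in DESeq2 with the block (adjusted p = 0.119).

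**Figure D2:**
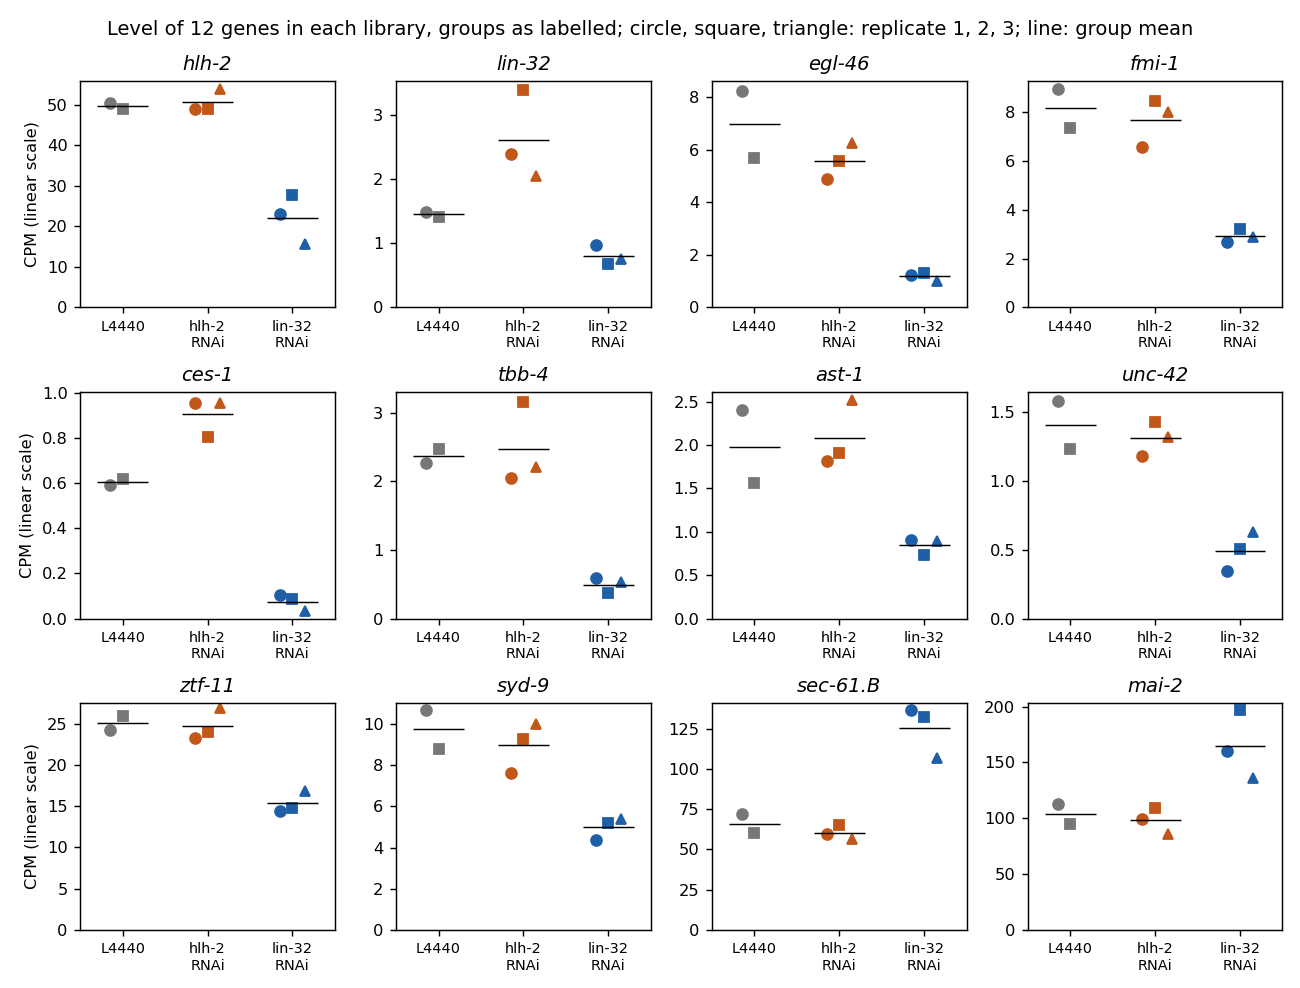
Level (CPM, linear scale) of 12 genes in each of the 8 libraries, grouped by label, with circles, squares and triangles for replicates 1, 2 and 3 and a line at the group mean. In 10 of the panels the libraries labelled hlh-2 RNAi lie above those labelled lin-32 RNAi. In sec-61.B and mai-2 they lie below. L4440 is shown for reference and is not in the contrast.

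Genes for the structure of neurons were also among the higher ones. The fmi-1 gene, for a cadherin of the Flamingo type that acts in axon guidance and planar polarity, had 6.59, 8.47 and 8.03 CPM under the hlh-2 RNAi label, 2.68, 3.22 and 2.89 CPM under the lin-32 RNAi label, and 8.97 and 7.37 CPM in L4440. Its groups were wide apart, with a log2 difference of 1.39 ± 0.13 (SE, edgeR adjusted p = 0.00161). The beta-tubulin gene tbb-4, whose product is found in the cilia of sensory neurons, had 2.04, 3.16 and 2.21 CPM against 0.592, 0.367 and 0.531 CPM, with 2.27 and 2.47 CPM in L4440. It was higher by 2.33 ± 0.26 (log2, SE, edgeR adjusted p = 0.00357). Both calls held with any 1 library left out. In the list of sensory cilium genes tbb-4 was the only one of 57 tested that passed. The median of that list was 0.25 (0.054 with genes under 1 CPM left out), 45 members lay above 0, and the groups were apart in 20. Over all 13848 tested genes 6950 lay above 0, the groups were apart in 1889 (13.6%), and 0.26% passed as higher. The block added dyf-7 (0.97), which anchors dendrite tips, osm-5 (1.47), of intraflagellar transport, and mks-5 (0.92), of the ciliary transition zone, all as blocked log2 differences. Their unblocked edgeR adjusted p-values were 0.0921, 0.164 and 0.195.

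Among 25 tested touch receptor neuron genes, egl-46 and tbb-4 passed as higher and 0 as lower, and with the block lad-2 did too (0.59), which overlaps ser-6 on the other strand. The list's median was 0.17, 17 members lay above 0, 4 had an unadjusted p under 0.05, and the groups were apart in 6. Over all 13848 tested genes the median was 0.00041 and 6950 lay above 0. Of these 13848 genes 0.26% passed as higher, 1063 had an unadjusted p under 0.05, and the groups were apart in 1889. The defining markers mec-7 and mec-17 did not pass in either fit. The tubulin gene mec-7 had 8.77 ± 0.443 CPM against 7.88 ± 1.53 CPM (mean ± SD, n = 3) and the acetyltransferase gene mec-17 had 5.15 ± 0.634 CPM against 5.08 ± 0.609 CPM. Their log2 differences were 0.16 ± 0.13 and 0.024 ± 0.13 (SE). The partner gene egl-44, whose TEAD-type product acts with EGL-46, had 16.9 ± 1.21 CPM against 16.01 ± 1.05 CPM (mean ± SD), a log2 difference of 0.080 ± 0.076 (SE, edgeR adjusted p = 0.878), and was named after its values were seen.

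Of 42 tested pan-neuronal and synaptic genes 0 passed in either direction with edgeR, 6 had an unadjusted p under 0.05, and 0 passed with DESeq2 or limma-voom. With the block 3 were higher, namely the active zone gene cla-1 (0.82), the presynaptic kinase gene sad-1 (0.64) and the ankyrin gene unc-44 (0.14), in blocked log2 differences. The list's median was 0.047. Over all 13848 tested genes the median was 0.00041, 0.26% passed as higher and 1063 had an unadjusted p under 0.05. With the block 1.64% of all tested genes were higher and 1.15% lower. In the planar polarity and Wnt list 1 of 33 passed, fmi-1, and the block added the Frizzled gene cfz-2 (0.56) and the Fat-like cadherin gene cdh-4 (0.15). Of 52 axon guidance and adhesion genes 1 was higher and 0 lower, and 5 and 0 with the block, at a median of 0.068. Beyond the targeted pair, no other of the 23 tested bHLH genes passed without the block. With it the myogenic gene hlh-1 (0.54) and the neurogenin gene ngn-1 (0.46) were higher and mxl-2 (-0.16) was lower. The Notch ligand gene lag-2, a target of HLH-2 in the anchor cell, had 2.37, 3.10 and 2.25 CPM against 0.871, 1.83 and 1.33 CPM. Its groups were apart, yet the difference of 0.91 ± 0.24 (log2, SE) passed only with the block (edgeR adjusted p = 0.224 without it and 0.00185 with it).

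**Figure D3:**
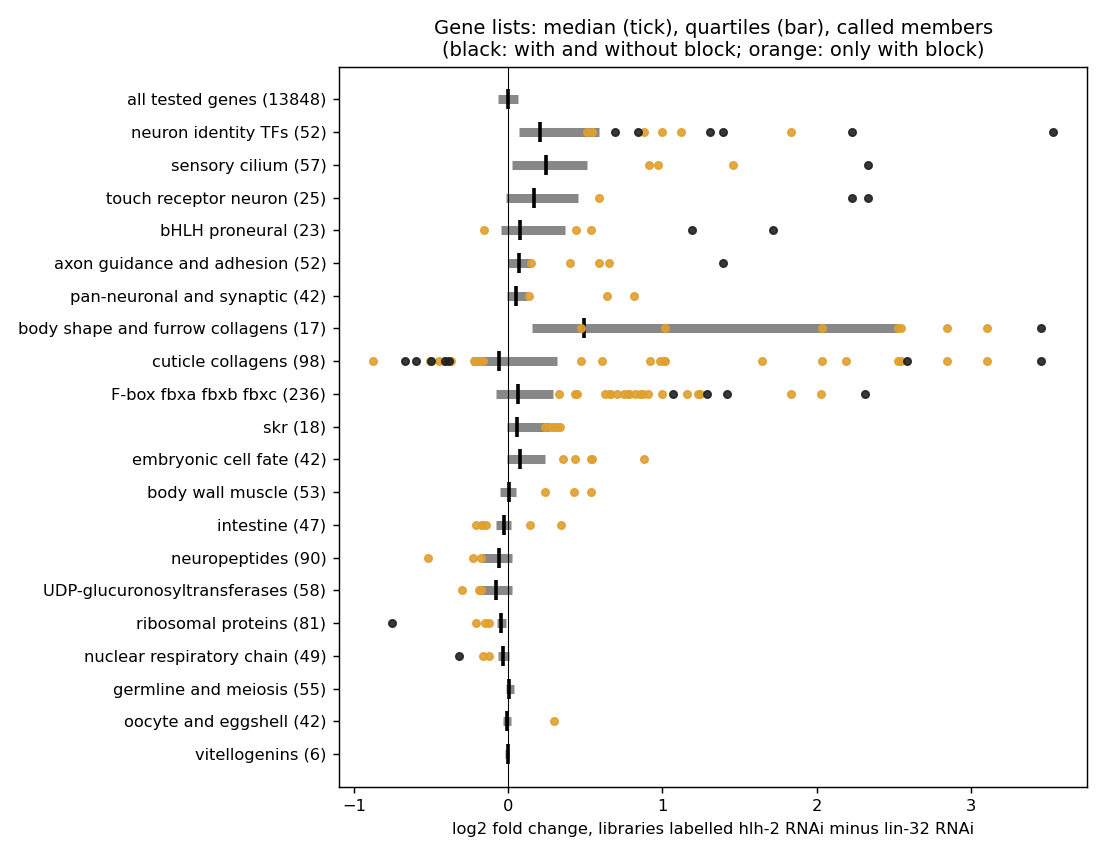
Log2 differences, libraries labelled hlh-2 RNAi minus lin-32 RNAi, by gene list, with the number of tested members in brackets. Ticks mark the median, bars the quartiles over members, black points members called with and without the block and orange points those called only with it. The median of the neuron identity factors is 0.21 and that of the body shape collagens 0.49, while the germline, oocyte and vitellogenin medians lie near 0.

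Cuticle collagen genes, which encode the structural proteins of the worm's outer coat, differed in both directions. Of 98 tested, 2 were higher and 5 lower, and with the block 15 higher and 19 lower, at a median of -0.058. The unadjusted p was under 0.05 in 43 of the 98, and the groups were apart in 35. Over all 13848 tested genes these counts were 1063 and 1889, and 0.26% were higher and 0.152% lower. With the block 1.64% of all tested genes were higher and 1.15% lower. The higher collagens were scarce transcripts. The sqt-1 gene, which shapes the body, had 20 counts in each library labelled hlh-2 RNAi and 4, 1 and 0 under the lin-32 RNAi label, with 25 and 42 in L4440. Its log2 difference was 3.46 ± 0.55 (SE, edgeR adjusted p = 0.0246). The col-17 gene had 23, 27 and 38 counts against 7, 5 and 2, with 42 and 55 in L4440, a log2 difference of 2.59 ± 0.39 (SE, edgeR adjusted p = 0.0205). For both, the L4440 libraries stood above all 6 others. Both lost the call without replicate 2 or 3 of either RNAi group (highest edgeR adjusted p = 0.165 for sqt-1 and 0.134 for col-17). Both also passed the count filter only through the libraries labelled hlh-2 RNAi, so their direction is not independent of the filter.

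The collagens that define body shape and the furrows of the cuticle lay on the same side. All 17 tested members of that list had log2 differences above 0, where 6950 of all 13848 tested genes did. The list's median was 0.49, although sqt-1 alone passed and 9 had an unadjusted p under 0.05. With genes under 1 CPM left out that median was 0.13. With the block 8 were higher and 0 lower. Over all tested genes 1063 had an unadjusted p under 0.05, and with the block 1.64% were higher and 1.15% lower. The 8 included rol-6 at 15, 14 and 18 counts against 4, 1 and 0, and dpy-13 at 20, 15 and 26 counts against 8, 1 and 1. The dpy-5 gene had 19, 11 and 24 counts against 5, 0 and 2. Without the block their edgeR adjusted p-values were 0.0656, 0.137 and 0.128. In each of these genes replicate 1 of lin-32 RNAi was the highest of its group. The sqt-1, rol-6, dpy-13 and dpy-5 genes passed the count filter only through the libraries labelled hlh-2 RNAi. The direction of these members is thus not independent of the filter. The list's summed level ran from 107.3 to 159.9 CPM under the hlh-2 RNAi label, from 100.1 to 156.9 CPM under the lin-32 RNAi label and from 126 to 178 CPM in L4440, so the sums overlapped.

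The collagens that were lower were numbered col genes, from 13.6 CPM for col-92 to 396 CPM for col-122 on average. The col-122 gene had 354, 351 and 327 CPM under the hlh-2 RNAi label, 437, 435 and 474 CPM under the lin-32 RNAi label, and 378 and 318 CPM in L4440. The groups were apart, with a log2 difference of -0.38 ± 0.045 (SE, edgeR adjusted p = 0.00498). The col-93 gene had 38.3, 39.6 and 30.96 CPM against 58.3, 53.9 and 61.3 CPM, a log2 difference of -0.67 ± 0.082 (SE, edgeR adjusted p = 0.00643). In L4440 it had 55.7 CPM, within the range of the libraries labelled lin-32 RNAi, and 42.7 CPM, between the groups. The others that passed were col-42 (-0.60), col-92 (-0.50) and col-103 (-0.41), the last named after its values were seen and overlapping gst-40. With the block col-95 (-0.52) and col-98 (-0.46) were lower too. Summed over all 98 genes, cuticle collagens took 5122 to 5473 CPM under the hlh-2 RNAi label, 5885 to 6452 CPM under the lin-32 RNAi label and 5183 to 5963 CPM in L4440. The calls of col-122 and col-93 held with any 1 library left out. That of col-42 was lost without replicate 2 of lin-32 RNAi (edgeR adjusted p = 0.0681) and with the robust option (0.0783), and those of col-92 and col-103 were lost in 5 of the 6 cases (highest edgeR adjusted p = 0.124 and 0.186). With all 8 libraries in the fit col-92 and col-103 were lost as well (edgeR adjusted p = 0.0733 and 0.0852), and col-103 also with the block added (0.0516) or with a minimum of 1 CPM (0.0593).

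Some genes of ubiquitin ligase adaptors were higher under the hlh-2 RNAi label. F-box proteins bring substrates to such ligases, and the worm has a large family of them. Of 236 tested fbxa, fbxb and fbxc genes 4 were higher and 0 lower, and with the block 24 and 0, at a median of 0.065. Over all 13848 tested genes 0.26% were higher without the block and 1.64% with it, at a median of 0.00041. The largest difference of the 4 was that of fbxb-65, at 27, 21 and 40 counts against 7, 5 and 5 (2.31 ± 0.37, log2, SE, edgeR adjusted p = 0.0265). This gene passed the count filter only through the libraries labelled hlh-2 RNAi, so its direction is not independent of the filter. The fbxb-42 gene had 1.78, 2.45 and 2.61 CPM against 0.766, 0.931 and 1.09 CPM, a log2 difference of 1.29 ± 0.21 (SE, edgeR adjusted p = 0.0266). The other 2 were fbxb-38 (1.42) and fbxb-104 (1.07). All 4 had groups apart, as had each of the 57 called genes. All 4 lost the call in 4 or 5 of the 6 cases of 1 library left out (highest edgeR adjusted p from 0.131 to 0.165). The fbxb-38 call was also lost with all 8 libraries in the fit (edgeR adjusted p = 0.0535) and in DESeq2 with the block (0.137), and that of fbxb-104 in limma-voom (0.0609) and with a minimum of 1 CPM (0.0507). Members of this family resemble each other, and the sources used here do not say how reads with several matches were counted, so single genes are uncertain.

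SKP1-related proteins join F-box proteins to the ligase. None of the 18 tested skr genes passed edgeR's test without the block, 7 had an unadjusted p under 0.05, and DESeq2 called 2 higher and limma-voom 0. With the block 6 were higher, by blocked log2 values of 0.24 for skr-7 to 0.34 for skr-8. Over all 13848 tested genes the unadjusted p was under 0.05 in 1063, and 1.64% were higher with the block. The skr-7 gene had 73.4, 81.1 and 85.9 CPM against 63.1, 71.5 and 68.7 CPM, with groups just apart, and 89.3 and 84.3 CPM in L4440. The BTB and MATH list held 1 higher gene of 66 tested, math-34, at 1.62, 2.09 and 1.78 CPM against 0.453, 0.790 and 0.663 CPM (1.503 ± 0.23, log2, SE, edgeR adjusted p = 0.0205). It lost the call in 5 of the 6 cases (highest edgeR adjusted p = 0.104). Of all tested genes 0.26% passed as higher.

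Other higher genes stood outside the lists. The arrestin domain gene arrd-1 (chromosome II, 627505 to 628658) had 9.59, 9.85 and 13.2 CPM under the hlh-2 RNAi label and 2.54, 2.62 and 3.81 CPM under the lin-32 RNAi label, with 10.3 and 12.1 CPM in L4440. All 3 libraries labelled lin-32 RNAi lay well below the rest, and the log2 difference of 1.86 ± 0.17 (SE, edgeR adjusted p = 0.00161) held with any 1 library left out. The TRPM-type channel gene ced-11, which acts in programmed cell death, was higher by 0.82 ± 0.13 (log2, SE, edgeR adjusted p = 0.0241), at 6.39, 6.95 and 8.39 CPM against 4.42, 3.67 and 4.25 CPM. T23C6.4 was higher by 0.55 ± 0.072 (log2, SE, edgeR adjusted p = 0.0107). The last 2 calls were lost in 5 and 3 of the 6 cases (highest edgeR adjusted p = 0.137 and 0.0723). The largest fitted difference belonged to WBGene00010240, a pseudogene on chromosome IV named after its values were seen, at 32, 35 and 43 counts against 1, 1 and 4. Its log2 difference of 4.08 ± 0.41 (SE, edgeR adjusted p = 0.00247) also held. The pseudogene passed the count filter only through the libraries labelled hlh-2 RNAi, so its direction is not independent of the filter.

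The lower genes with the smallest p were sec-61.B and rla-1. The sec-61.B gene (WBGene00021427, chromosome IV, 2388185 to 2388675), for the beta subunit of the channel that carries new proteins into the endoplasmic reticulum, had 1808, 2177 and 1841 counts under the hlh-2 RNAi label, 3932, 4685 and 3227 counts under the lin-32 RNAi label, and 1586 and 1659 in L4440. As levels these were 60.4 ± 4.23 CPM against 125.4 ± 16.08 CPM (mean ± SD, n = 3), with 71.9 and 60.2 CPM in L4440. The groups were far apart, with a log2 difference of -1.05 ± 0.083 (SE, edgeR adjusted p = 0.00065). The rla-1 gene, for the acidic ribosomal protein P1, had 581, 610 and 484 CPM against 958, 977 and 889 CPM, with 692 and 523 CPM in L4440. It was lower by -0.75 ± 0.074 (log2, SE, edgeR adjusted p = 0.00229), and overlaps arl-13 on the other strand. Both calls held with any 1 library left out.

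Mitochondrial ATP synthase supplied 2 lower genes. Y82E9BR.3, for its membrane subunit c, had 1025, 994 and 792 CPM against 1566, 1506 and 1415 CPM, a log2 difference of -0.67 ± 0.083 (SE, edgeR adjusted p = 0.00643), and overlaps lelo-2. The mai-2 gene, for an inhibitor of that enzyme, had 99.0, 110 and 85.7 CPM against 161, 198 and 136 CPM, a log2 difference of -0.75 ± 0.12 (SE, edgeR adjusted p = 0.0246). Neither pair of groups overlapped. The mai-2 call was lost in 4 of the 6 cases (highest edgeR adjusted p = 0.0818) and that of Y82E9BR.3 in none, although the robust option ended both. The cytochrome oxidase gene cox-5A was lower by -0.32 ± 0.045 (log2, SE, edgeR adjusted p = 0.0129) and lost the call without replicate 2 or 3 of lin-32 RNAi (highest edgeR adjusted p = 0.0719) and with all 8 libraries in the fit (0.084). F23C8.5 was lower by -0.38 ± 0.041 (log2, SE, edgeR adjusted p = 0.00302), held throughout and overlaps F23C8.13. The centrosome gene tac-1 was lower by -0.43 ± 0.074 (log2, SE, edgeR adjusted p = 0.0364), a call lost without any 1 library of lin-32 RNAi (highest edgeR adjusted p = 0.191). The tac-1 call was also lost with the robust option (edgeR adjusted p = 0.312), with a minimum of 1 CPM (0.0593) and with all 8 libraries fitted without or with the block (0.15 and 0.0577).

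Of the lower genes above other than collagens, sec-61.B, rla-1 and cox-5A belonged to gene lists, whose medians lay between -0.044 and 0.0084. In the heat shock and ER stress list sec-61.B was the only one of 49 tested that passed, at a median of 0.0084. Of 81 ribosomal protein genes rla-1 alone passed, and 4 were lower with the block, at a median of -0.044. Of the 81, 11 lay above 0, where 6950 of all 13848 tested genes did. The acidic protein gene rla-2 was among the 4 (-0.21 in the blocked fit). Of 49 nuclear respiratory chain genes cox-5A alone passed, and the block added asb-2 (-0.12) and cox-6C (-0.16), at a median of -0.034. A pair of IDs named clec-209, for C-type lectins, were the only lower ones of 91 tested in that family, by -0.23 and -0.20. Reads may be split between these near-identical copies, so each is uncertain, and WBGene00021224 lost the call in 3 of the 6 cases (highest edgeR adjusted p = 0.0661). The other, WBGene00018910, lost it in all 6 (highest edgeR adjusted p = 0.168) and with library size alone (0.0559). In L4440 both IDs lay above all 6 RNAi libraries, at 385 and 404 CPM for WBGene00021224. With the block 2 other C-type lectin genes were higher, among them clec-12 (0.50). Of 58 UDP-glucuronosyltransferase genes and 90 neuropeptide genes 0 passed with edgeR or limma-voom, and DESeq2 called 0 and 1. With the block 4 and 3 were lower, among them ugt-63 (-0.30) and flp-14 (-0.52). At an unadjusted p under 0.05 there were 7 and 6, and 1063 over all 13848 tested genes. Of all tested genes 0.152% passed as lower without the block and 1.15% with it.

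The strongest lower difference was that of C42D4.3, named after its values were seen. It had 12, 8 and 14 counts under the hlh-2 RNAi label, 86, 199 and 76 under the lin-32 RNAi label, and 12 and 14 in L4440. The 3 libraries labelled lin-32 RNAi thus stood alone, and the log2 difference of -3.40 ± 0.38 (SE, edgeR adjusted p = 0.00375) held with any 1 library left out.

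Median differences over all genes shifted with exon length. The median log2 difference was -0.044 over 984 genes with up to 500 bases of exon and 0.041 over 737 genes with over 4000. The bins between had -0.025, -0.0036 and 0.019. Within the pairs of equal number the median rose from -0.057 to 0.023 for replicate 1, from -0.074 to 0.088 for replicate 2 and from -0.0090 to 0.014 for replicate 3. Exons of sec-61.B, rla-1 and mai-2 span 435, 441 and 467 bases and those of fmi-1 span 8070. The called lower genes had a median of 911 exon bases, the called higher ones 1120 and all tested genes 1390. The part of length in the differences of these genes was not tested.

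**Figure D4:**
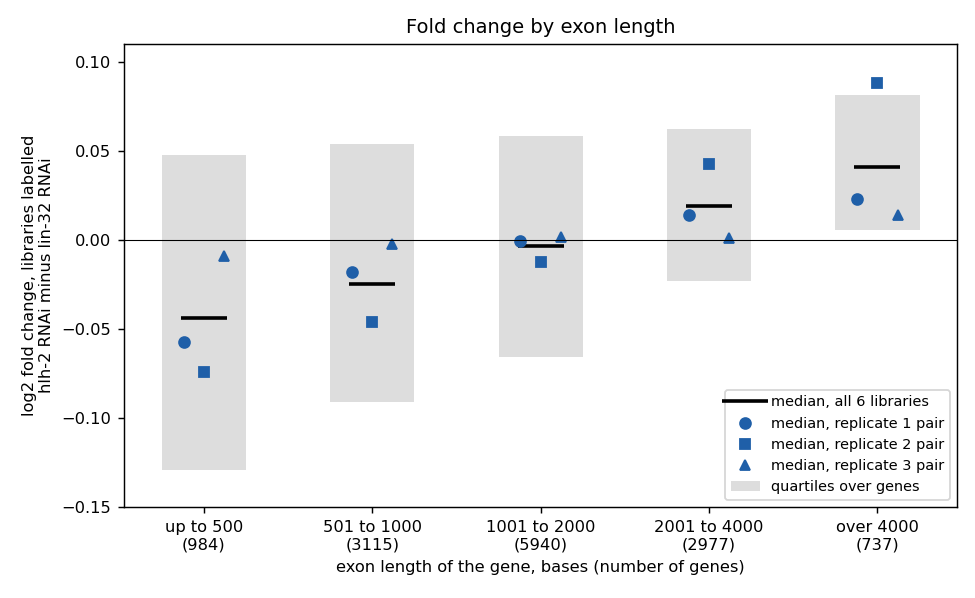
Log2 difference, libraries labelled hlh-2 RNAi minus lin-32 RNAi, by exon length of the gene, with the number of genes per bin in brackets. Grey bars span the quartiles over genes, black lines mark the median over all 6 libraries, and symbols the medians of the 3 pairs of equal replicate number. The medians go from -0.044 in the shortest bin to 0.041 in the longest.

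The libraries fed L4440 gave the position of the called genes relative to animals without a target. In 36 of the 36 higher genes the mean L4440 level lay nearer the mean of the libraries labelled hlh-2 RNAi on the log2 scale, and in 16 of the 21 lower genes. For all tested genes the share was 57.7%. Of the 386 genes called with the block it was 85.2%. L4440 lay above both groups in 19 of the 36 higher genes and between them in 17. In the 21 lower genes it lay above both in 2, between them in 17 and below both in 2. Over all 13848 tested genes L4440 lay above both in 5132, between them in 3609 and below both in 5107. This is a description with no test, since these libraries took no part in the contrast. Chromosome II held 14 of the 36 higher genes and 17.4% of those tested, and 22.3% of the genes called with the block.

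Outside the neuron lists above, no tissue or stage list given here held a gene that passed edgeR's test without the block. Of 55 germline and meiosis, 42 oocyte and eggshell, 20 sperm and 6 vitellogenin genes 0 passed in either direction with edgeR or limma-voom. DESeq2 called 1 oocyte gene lower, and edgeR with the block called 1 oocyte gene higher. Their medians were 0.0069, -0.0075, 0.026 and -0.00059. At an unadjusted p under 0.05 there were 1, 4, 0 and 0 in that order. Summed levels of these lists overlapped between the groups, as for the vitellogenins at 61900 to 63140 CPM against 59370 to 65020 CPM. Of 42 embryonic cell fate genes 0 passed with edgeR or limma-voom, the unadjusted p was under 0.05 in 8, and DESeq2 called 1 higher. With the block 5 were higher, among them sdz-28 (0.44), ceh-43 and hlh-1, at a median of 0.077. The list's summed level was 5665 to 5724 CPM against 5668 to 5830 CPM. Of 53 body wall muscle genes 0 passed with edgeR or limma-voom, the unadjusted p was under 0.05 in 10, DESeq2 called 1 higher, and edgeR with the block called 3 higher. The myosin gene myo-3 had 39.5, 41.0 and 38.6 CPM against 34.1, 33.8 and 33.03 CPM, groups apart, with an edgeR adjusted p of 0.0506 without the block and 0.00252 with it. The hypodermal collagen gene dpy-7 passed only with the block (0.48). With the block 2 of 47 intestine genes were higher and 4 lower, and 3 of 71 pharynx genes higher and 1 lower. Of 16 glia and 22 somatic gonad genes 1 and 1 were higher and 0 lower. In these lists, in that order, the unadjusted p was under 0.05 in 4, 8, 2 and 5. Over all 13848 tested genes it was under 0.05 in 1063, and with the block 1.64% were higher and 1.15% lower.

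**Figure D5:**
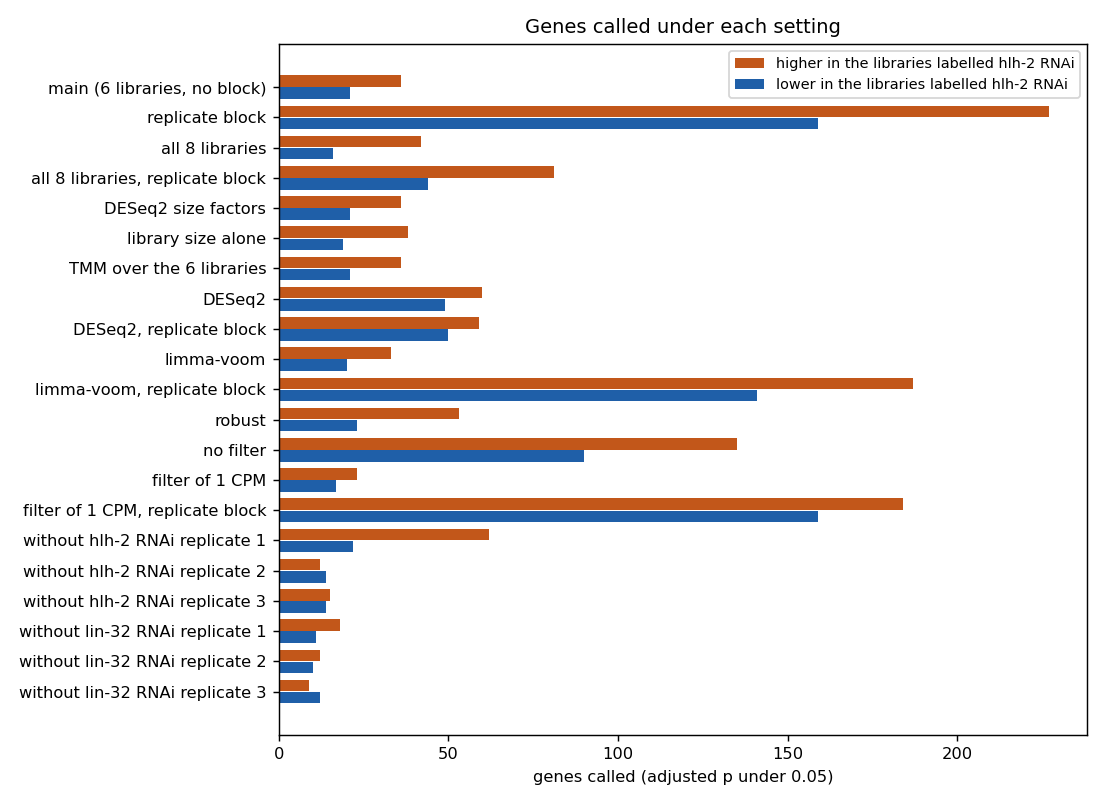
Number of genes called (x axis) higher and lower in the libraries labelled hlh-2 RNAi under each setting (y axis). The count without the block is 57 and with it 386. With 1 library left out it lies between 21 and 84.

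The count rested on which libraries entered. Leaving out 1 library gave 21 to 84 genes, with the lowest count without replicate 3 of lin-32 RNAi and the highest without replicate 1 of hlh-2 RNAi. Without replicate 2 or 3 of hlh-2 RNAi the counts were 26 and 29, and without replicate 1 or 2 of lin-32 RNAi 29 and 22. Of the 57 genes 16 passed with any 1 library left out and 41 lost the call at least once, and none changed direction. Among the 6 libraries the group accounted for 29.5% of the variation of log2 CPM over genes and the sample number for 44%, where libraries without structure would give 20% and 40%.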

How the data were processed

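Bulk RNA sequencing of whole nematodes gave 1 deposited table of raw counts per gene in 8 libraries. Per the submitters' processing notes, featureCounts 1.4.6-p4, TopHat2 2.1.0 and bcl2fastq 1.8.4 were used on the WBcel235 build. The sources used here do not give their settings. The deposited counts were tested with edgeR 4.0.16 (R 4.3.3, quasi-likelihood, threshold 0.05), group as the only term. filterByExpr over the 6 libraries kept 13848 of 46748 genes, and TMM factors came from all 8. A scarce gene could pass this filter through 1 group alone. DESeq2 1.42.0 and limma 3.58.1 were alternatives.

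Deviations from group means correlated at 0.307, 0.207 and 0.205 between libraries of equal sample number and at -0.204 to 0.0142 otherwise. The pairing comes from these data, since the labels state no shared batch, and blocked values stand beside the results they change.

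Symbols matched 43693 IDs. Of 1188 list names 27 had no match. The members and the 58 gene lists were chosen with earlier results of these data known. Named genes were those with groups apart and at least 5 CPM, 8 by size and 6 by p per direction. To these came the targeted genes, up to 4 called members per list, 2 of lowest p in lists without any, and 4 per direction called only with the block. Others are said to be chosen after their values were seen. Promoter motifs were not analysed here.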

Additional observations from a re-analysis of the deposited data

How the results depend on the processing

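All 57 genes kept their direction in every alternative that gave them a value. The replicate block, whose pairing rests on the correlations of these libraries, gave 386 genes, of which 227 were higher, 159 lower and 72 over 2-fold. With all 8 libraries and the block there were 125 (81 higher, 44 lower). DESeq2 gave 109 (60 and 49), and 109 with the block (59 and 50). Limma-voom with the block, chosen after seeing the data, gave 328 (187 and 141, 67 over 2-fold). Without a count filter 22552 genes were tested and 225 called (135 and 90, 66 over 2-fold). A minimum of 1 CPM in 3 libraries gave 40, of which 23 were higher and 19 over 2-fold, and with the block, chosen after seeing the data, 343 (184 and 159). Leaving out 1 library gave 21 to 84 genes, 9 to 62 higher, 10 to 22 lower and 11 to 43 over 2-fold. Leaving out replicate 1, 2 or 3 in both groups, with the block and 1 library pair fewer, gave 362, 638 and 327 genes, 218, 294 and 194 higher, 144, 344 and 133 lower, and 85, 76 and 68 over 2-fold. The cause of these shifts was not tested. Counts stayed within 1.5 times of 57 with all 8 libraries (58), DESeq2 size factors (57), library size alone (57), limma-voom (53) and the robust option (76). The hlh-2 difference was 1.19 with the robust option (edgeR adjusted p = 0.267), and its edgeR adjusted p with 1 library left out was at most 0.0427. The lin-32 difference ran from 1.48 to 1.87 with 1 library left out, and was lost without replicate 2 or 3 of lin-32 RNAi. Depth limits the genes under 1 CPM, where 1 CPM stands for 28.7 to 35.4 counts.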
